A study of Mus musculus with 48 samples.

Results

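Sox2 encodes a transcription factor of the SRY-box family, and its surroundings on mouse chromosome 3 were examined for binding of CTCF and cohesin. All peaks lying at least partly between 34600000 and 34800000 (mm10) were taken, 727 of the 1444924 peaks in 22 lists. Of these, 72 were FLAG peaks, 598 were SMC3 peaks and 57 were CTCF antibody peaks. They were chosen by their deposited positions alone, but the locus was picked with peak counts of these data already known, so its counts and levels are given as a description without a test. Of the 727 peaks, 6 crossed an edge of the window and were kept.

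The cells were E14Tg2a mouse embryonic stem cells of the 129/Ola strain, grown without feeders in serum with leukemia inhibitory factor, CHIR99021 and PD0325901. All groups carried an auxin-inducible degron on endogenous CTCF and a doxycycline-inducible Ctcf transgene, which was wild type (WT) or held 1 of 9 substitutions in the DNA-binding domain, named by residue: arginine changes R339Q, R342C, R377C, R377H and R448Q, or S354F, K365T, Q418R or H455R. Groups called treated received 500 µM indole-3-acetic acid (IAA, which triggers the degron) and 1 µg/ml doxycycline for 2 days. FLAG, which marks the transgene protein, and SMC3, a core subunit of cohesin, were profiled in all 10 treated genotypes, and the CTCF antibody was used in WT cells with and without treatment. The labels do not say whether a genotype is 1 clone or several, nor how much endogenous CTCF was left. ChIPmentation, an immunoprecipitation in which a transposase tags the bound chromatin, gave 1 peak list per group from 2 pooled replicates. There is therefore 1 value per genotype, no spread between replicates and no p-value, and the Wilson 95% intervals below cover counting error over sites only. A missing peak means that no peak was called in that list, not that the protein was absent.

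CTCF is a zinc-finger protein that binds a long, directional DNA motif and halts cohesin, the ring complex that extrudes chromatin loops. Sox2 is, with Pou5f1 and Nanog, a core regulator of pluripotency, and in mouse embryonic stem cells its transcription depends on a distal enhancer cluster lying downstream of the gene, known as the Sox2 control region. CTCF sites flank both the gene and that cluster.

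Sox2 occupies 34649995 to 34652461 on the plus strand, inside the longer span of the lncRNA gene Sox2ot (34560381 to 34677993). Positions below are in kb from the Sox2 start, and a site is named by its midpoint. The interval from 100 to 120 kb downstream of the start (34749995 to 34769995), which holds the known control region, is called the distal interval. The gene with 1 kb on either side is called the promoter interval. The other annotated genes of the window are the lncRNA genes Gm42205, Gm34941, Gm3143 and Gm38509 and the microRNA gene Mir1897.

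A pair of promoters is shown, because they lie at opposite ends of the FLAG pattern: no FLAG peak of any genotype touched the first, and peaks of 5 genotypes ran into the second. The sequences are from RefSeq on GRCm38.p6, the assembly that mm10 names. For Sox2, the 250 bases before the start (chr3:34649745-34649994, plus strand, 72% G or C) have 2 motifs in capitals. They are ATGCAAA, a shortened form of the octamer read by POU factors such as the Pou5f1 product, and CCCTC, the word after which CTCF is named. The whole octamer was not searched for. For Gm38509, the 250 bases before and 50 after the start (chr3:34771825-34772124, plus strand) have in capitals the 66 bases that lie under at least 1 FLAG peak.
Sox2 promoter: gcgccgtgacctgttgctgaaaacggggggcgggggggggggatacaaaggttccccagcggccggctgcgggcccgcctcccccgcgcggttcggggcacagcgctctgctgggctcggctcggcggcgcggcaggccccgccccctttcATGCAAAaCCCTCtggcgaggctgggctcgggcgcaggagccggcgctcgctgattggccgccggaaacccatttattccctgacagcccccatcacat
Gm38509 promoter: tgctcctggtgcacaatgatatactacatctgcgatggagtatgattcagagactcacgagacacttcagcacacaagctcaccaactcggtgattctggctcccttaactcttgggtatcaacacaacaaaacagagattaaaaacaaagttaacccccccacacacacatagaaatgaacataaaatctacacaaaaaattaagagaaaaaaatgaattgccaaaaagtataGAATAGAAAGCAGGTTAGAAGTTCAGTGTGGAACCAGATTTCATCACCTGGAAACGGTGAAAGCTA

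Both strands of these windows were searched for CCCTC, for CCNNNAGGG (a loose form of the centre of the CTCF motif), for CATTGT (the core read by SOX proteins) and for ATGCAAA. In the Sox2 promoter ATGCAAA begins 99 bases and CCCTC 91 bases before the start, both on the plus strand and without overlapping, and neither CCNNNAGGG nor CATTGT was found. Of 32851 promoters of the same table, each 300 bases long, 66.0% hold CCCTC, 21.4% CCNNNAGGG, 12.6% CATTGT and 4.63% ATGCAAA, counting either strand. The Gm38509 window held CATTGT on the minus strand, and neither CCCTC, CCNNNAGGG nor ATGCAAA. A match is a string of letters and not a measured site.

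The 10 FLAG lists held between 3855 peaks (H455R) and 30462 (R377C), with 15392 in WT. The SMC3 lists held between 42030 (Q418R) and 153647 (R448Q), with 71962 in WT. Depth per library is unknown, and list length was not separated from binding. The authors' peak caller gave each peak a value of unstated kind, so peaks were ranked only within their own list, and the percentile below is the share of that list's peaks with a lower value. Running numbers in the peak names showed no gap inside the window, so no filtered peak was detected there. Of the WT FLAG peaks, 91.1% met a peak of the CTCF antibody in treated cells, against 52.0% in H455R and 59.2% in Q418R.

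In WT, FLAG peaks around Sox2 stood in a cluster just upstream of the gene and in a looser group around and beyond the distal interval. Merged over the 10 FLAG lists, the FLAG peaks of the window formed 24 sites. Only 1 of these, 8.9 kb upstream, had a FLAG peak in all 10 genotypes, and 15 had a peak in a single genotype. WT had 6 sites in the window. Those were 10.6, 8.9 and 2.3 kb upstream and 110.0, 122.2 and 137.0 kb downstream, so that 112 kb separated the innermost upstream site from the distal one.

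**Figure D1:**
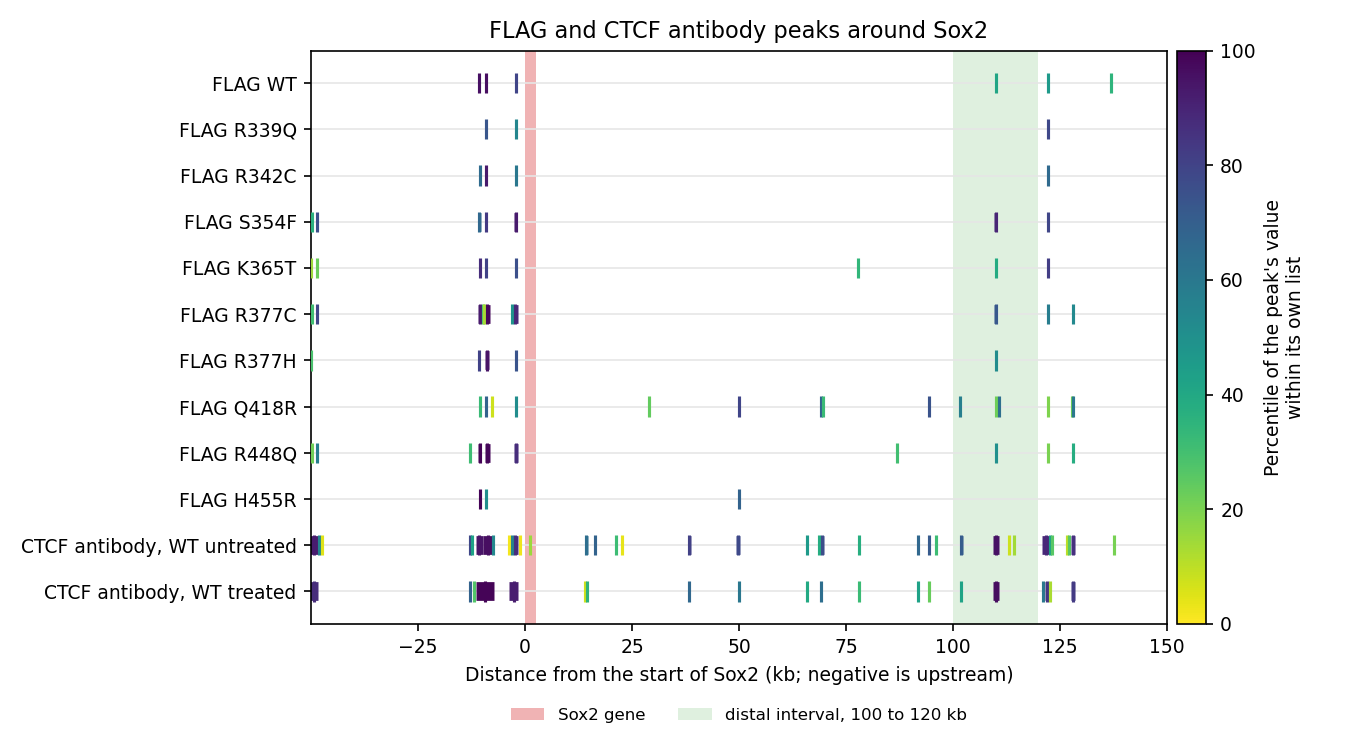
Each tick or bar is 1 peak, placed by distance from the Sox2 start (x axis, kb) in the list named on the y axis (FLAG in 10 genotypes, CTCF antibody in untreated and treated WT), and its colour is the percentile of its value within that list. Every genotype has FLAG peaks just upstream of Sox2, and Q418R, with 15 in the window, has others spread downstream. No list has a FLAG peak in the gene, and R339Q, R342C and H455R have none in the shaded distal interval.

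The upstream pair was the strongest FLAG feature of the locus in WT. The site 10.6 kb upstream (34638918 to 34639804) had a deposited WT value of 8.43, rank 621 of 15392, and the site 8.9 kb upstream (34640559 to 34641729) had 8.62, rank 546. The pair lies within the Sox2ot span, with 1.78 kb between midpoints. At 8.9 kb the peak stood at percentile 96.4 of its list in WT, 73.4 in R339Q, 93.1 in R342C, 82.9 in S354F, 80.4 in K365T, 97.9 in R377C, 94.8 in R377H, 68.6 in Q418R, 98.2 in R448Q and 50.8 in H455R. It was thus above the middle of every list, and lowest in H455R and Q418R.

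At 10.6 kb upstream, 9 genotypes had a FLAG peak and R339Q had none. The percentile was 96.0 in WT, 65.5 in R342C, 66.7 in S354F, 87.1 in K365T, 92.8 in R377C, 80.4 in R377H, 32.3 in Q418R, 99.5 in R448Q and 99.5 in H455R. In H455R, the list with the fewest peaks, this was the peak with rank 19 of 3855, and in R448Q it had rank 104 of 19403. Within a list the order of the pair differed between genotypes. In H455R the value was 12.3 at 10.6 kb and 3.14 at 8.9 kb, in R448Q 21.5 and 16.4, and in K365T 7.38 and 6.25. In the other 6 lists with both peaks the site at 8.9 kb had the higher value, as in R342C with 5.22 and 9.41 and in R377H with 7.05 and 11.4, and the WT values were nearly level.

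The third upstream site, 2.3 kb from the start (34647196 to 34648225), was the FLAG site nearest to Sox2 that several genotypes shared. It had a peak in 9 genotypes and none in H455R. Its percentile was 79.7 in WT, 54.1 in R339Q, 60.4 in R342C, 92.8 in S354F, 75.5 in K365T, 88.9 in R377C, 74.1 in R377H, 51.4 in Q418R and 87.3 in R448Q. In S354F it had the highest percentile of the window, whereas in WT it ranked below the pair farther upstream. The FLAG peaks here ended 1.77 kb (R377C) or more before the start, and in WT 1.94 kb before it.

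The gene itself had no FLAG peak. In the promoter interval the count was 0 in all 10 lists. No FLAG list had a peak from 1.77 kb upstream to 28.9 kb downstream, a stretch of 30.7 kb that takes in the whole gene. FLAG peaks were sparse everywhere, with a median per 200-kb tile of the genome of 0 in R339Q and H455R and 1 in the other lists. An empty stretch of this size can therefore not be read as a trait of Sox2. The CTCF antibody gave 1 peak in the promoter interval in untreated cells, at 1.06 kb inside the gene with percentile 15.1, and 0 in treated cells. SMC3, whose lists all held more peaks than any FLAG list, was found in the promoter interval in 9 of 10 genotypes. WT had 1 SMC3 peak in the promoter interval, S354F 3, K365T, R342C, H455R and R448Q 4 each, R339Q and R377H 5 each and R377C 6, and Q418R had 0. Within the gene span SMC3 peaks were called in 8 genotypes, and in neither WT nor Q418R. In R448Q a single SMC3 peak of 4142 bp (34646131 to 34650272) reached from upstream across the start. Its value of 22.5, at percentile 99.4, is that of the whole peak, which also covers the FLAG site 2.3 kb upstream. It is therefore not a level at the start itself.

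The distal interval contained 1 FLAG site that several genotypes shared, 110.0 kb downstream (34759642 to 34760377), outside any annotated gene. It had a FLAG peak in WT, S354F, K365T, R377C, R377H, Q418R and R448Q, and none in R339Q, R342C and H455R. The percentile was 41.1 in WT, 89.6 in S354F, 38.8 in K365T, 72.9 in R377C, 51.9 in R377H, 21.9 in Q418R and 50.1 in R448Q. In WT this FLAG peak (value 3.34, rank 9061) was therefore in the weaker part of its list, while the CTCF antibody peak at the same place stood at percentile 95.5 in untreated and 96.9 in treated WT cells. Q418R had a pair of further peaks in the interval, at 101.7 and 110.8 kb, which no other FLAG list shared.

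Beyond the distal interval, a FLAG site at 122.2 kb (34772059 to 34772351) lay at the beginning of Gm38509, a lncRNA gene with its annotated start at 34772075. Only the S354F peak reached that start, and the WT peak began at 34772141. FLAG peaks were present in 8 genotypes and missing in R377H and H455R. The percentile was 46.0 in WT, 78.5 in R339Q, 65.7 in R342C, 79.0 in S354F, 82.0 in K365T, 57.9 in R377C, 19.2 in Q418R and 20.1 in R448Q. In R339Q, which had no FLAG peak in the distal interval, this was the peak with the highest percentile of the window. The S354F peak lies over all the capital letters of the Gm38509 promoter above, and the peaks of R339Q, R342C, K365T and R377C over their last part.

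The sixth WT site, 137.0 kb downstream (34786972 to 34787071), had a peak in WT alone, with a value of 3.13 at rank 10003 of 15392. It was also the only WT FLAG site of the window without a CTCF antibody peak in either list, though 8 SMC3 lists had a peak there.

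**Figure D2:**
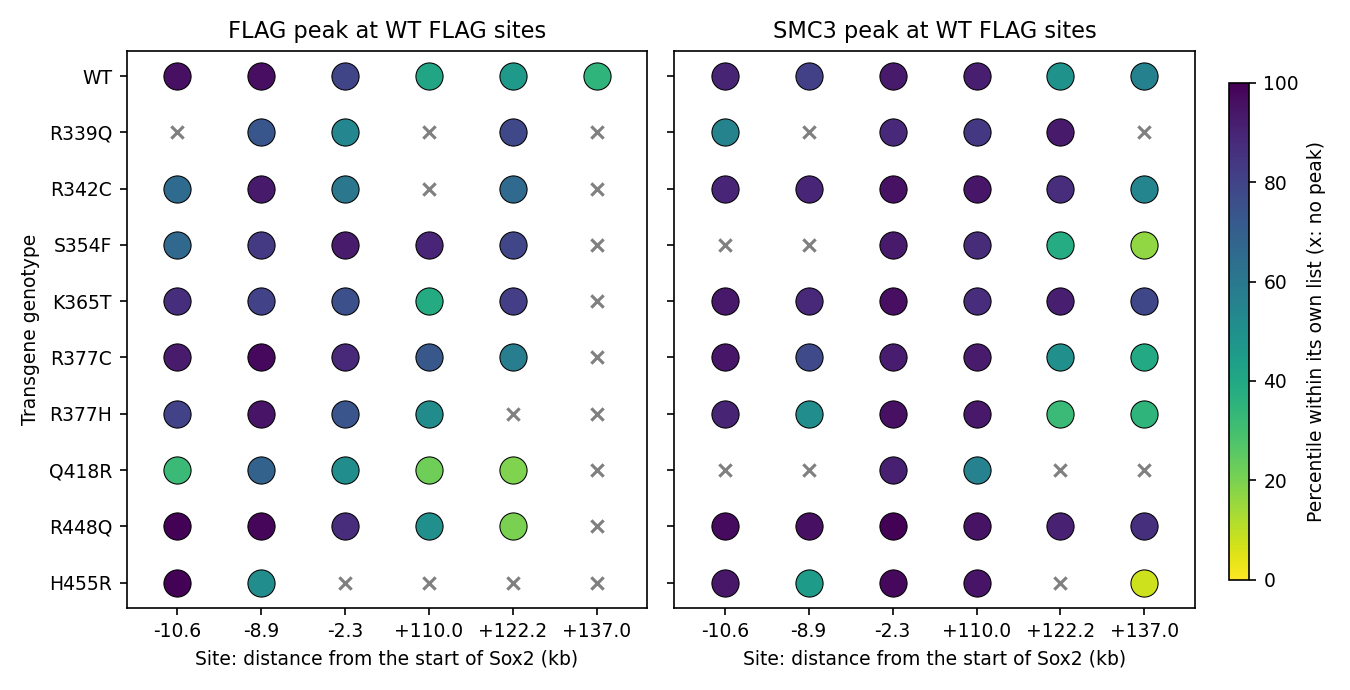
Each circle is a FLAG (left) or SMC3 (right) peak at 1 of the 6 WT FLAG sites (x axis, kb from the Sox2 start) in 1 genotype (y axis), coloured by its percentile within its own list; where several peaks of a list meet a site the highest is drawn, and a cross marks no peak. FLAG is complete only at 8.9 kb upstream, and SMC3 is complete at 2.3 kb upstream and 110.0 kb downstream.

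FLAG sites of the window were mostly sites of the CTCF antibody too. Of the 24 FLAG sites, 20 had a CTCF antibody peak in both WT lists, 1 in untreated cells only and 3 in neither. At the left edge of the window, 49.9 kb upstream near Gm42205, a site had FLAG peaks in S354F, K365T, R377C, R377H and R448Q, with percentiles from 14.7 (K365T) to 36.5 (S354F). The neighbouring site at 48.7 kb had them in S354F, K365T, R377C and R448Q, from 22.7 (K365T) to 79.0 (R377C). Q418R had 8 sites that no other genotype had, and R377C 3. For each genotype, the private site ranked highest in its own list was that of K365T at 77.9 kb (rank 8649 of 13151), that of Q418R at 94.4 kb (rank 7775 of 30332), that of R377C at 3.1 kb upstream (rank 15688 of 30462) and that of R448Q at 12.8 kb upstream (rank 13348 of 19403). A site 50.0 kb downstream, in Gm3143, was shared by Q418R (percentile 79.3) and H455R (68.4), and was the highest Q418R peak of the window.

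Each mutant was set against WT by counting how many of the 6 WT FLAG sites had a FLAG peak in it. S354F, K365T, R377C, Q418R and R448Q kept 5 of 6, R342C and R377H kept 4, R339Q kept 3 and H455R kept 2. Over all 15392 WT FLAG sites of the genome, the kept share was 86.2% in S354F, 52.1% in K365T, 89.6% in R377C, 59.2% in Q418R, 75.2% in R448Q, 72.2% in R342C, 71.8% in R377H, 53.1% in R339Q and 10.5% in H455R. The window's share in K365T was 83.3% (43.6 to 97.0) and that in H455R 33.3% (9.68 to 70.0). For all 9 mutants the interval of the window's share contained the genome-wide share, so 6 sites do not set the locus apart from the genome. The site at 137.0 kb, which lacks a CTCF antibody peak, had no FLAG peak in any of the 9.

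Counted over the 5 WT sites that had a treated CTCF antibody peak, S354F, K365T, R377C, Q418R and R448Q kept 5, R342C and R377H 4, R339Q 3 and H455R 2. Over all such sites of the genome the kept share was 93.5% in S354F, 55.4% in K365T, 97.7% in R377C, 62.2% in Q418R, 81% in R448Q, 78.9% in R342C, 78.2% in R377H, 58.1% in R339Q and 9.26% in H455R. The interval then lay above the genome-wide share in K365T (from 56.6%) and in H455R (from 11.8%), in both by a narrow margin, and contained it in the other 7. When every FLAG list was limited to its 3855 strongest peaks, WT had 3 sites in the window, of which K365T, R377C and R448Q kept 3, R377H and H455R 2, R342C and S354F 1 and R339Q and Q418R 0. The genome-wide share at that list size was 51% in K365T, 66.9% in R377C, 59.9% in R448Q, 62.4% in R377H, 17.3% in H455R, 63.7% in R342C, 56.8% in S354F, 42.4% in R339Q and 29.9% in Q418R. The interval lay above it in H455R (20.8 to 93.9%) and contained it in the other 8. With a reciprocal overlap of 50%, 5 of 6 sites were kept in K365T and in Q418R, and the interval (from 43.6%) lay above the genome-wide shares of 41.2% and 37.8%.

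**Figure D3:**
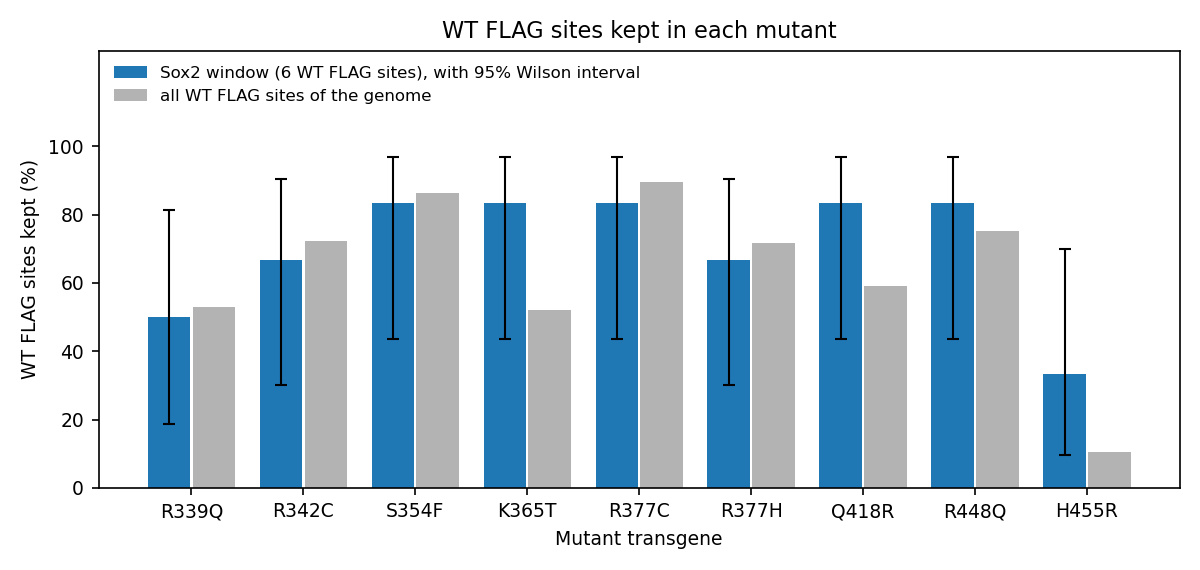
Bars give the share (y axis, %) of WT FLAG sites that had a FLAG peak in each mutant (x axis), for the 6 sites of the Sox2 window (blue, with the 95% Wilson interval) and for all 15392 sites of the genome (grey). H455R is lowest in both, at 33.3% and 10.5%, and each interval spans the grey bar beside it.

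In the other direction, FLAG peaks of the window without a WT FLAG peak were 0 of 3 in R339Q, 0 of 4 in R342C, 2 of 7 in S354F, 3 of 8 in K365T, 6 of 11 in R377C, 1 of 5 in R377H, 10 of 15 in Q418R, 5 of 10 in R448Q and 1 of 3 in H455R. Over the whole lists the shares were 57.4% in R339Q, 33% in R342C, 45.8% in S354F, 39% in K365T, 55.9% in R377C, 33.6% in R377H, 70.2% in Q418R, 40.6% in R448Q and 58.1% in H455R. R339Q thus had no added FLAG peak around Sox2, and the interval of its 3 peaks, up to 56.1%, ended just under its background. With a reciprocal overlap of 50%, or in the upper 50% of each list, 1 of the 3 counted as added. In Q418R the window's 66.7% (41.7 to 84.8) was near its background.

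The CTCF antibody does not tell the transgene product from any endogenous CTCF left. It gave 37 peaks in untreated and 20 in treated WT cells. Of the untreated peaks 21 of 37 had a treated peak, 56.8% (40.9 to 71.3) against 56.9% over the whole list. Of the treated peaks 19 of 20 had an untreated one, 95% (76.4 to 99.1) against 91.7%. In treated cells 1 broad peak of 4410 bp covered both FLAG sites of the upstream pair, with a value of 164 at rank 1085 of 116973. In untreated cells the pair was covered by separate peaks at percentiles 94.6 and 96.3. The strongest other treated peaks were those at the distal site (percentile 96.9), at 2.3 kb upstream (92.2), at the left edge (87.4), at Gm38509 (84.6) and at 128.1 kb (82.8). All of these had an untreated peak as well, at percentiles 95.5, 86.8, 92.2, 89.0 and 86.1. Merging the FLAG and CTCF antibody lists gave 37 CTCF sites, of which 22 had no FLAG peak in any genotype.

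Cohesin peaks were dense in the window. WT had 34 SMC3 peaks, against a median of 2 per 200-kb tile of the genome, and the mutants had from 22 in Q418R (tile median 1) to 127 in R448Q (tile median 5). R339Q had 53, R342C 70, S354F 32, K365T 61, R377C 63, R377H 71 and H455R 65. Only tiles with a peak in at least 1 of the 22 lists were counted. WT FLAG (6 peaks) and the CTCF antibody (37 untreated, 20 treated) also exceeded their tile medians, of 1, 8 and 6. The length of the window under SMC3 peaks was 4.86% in WT, 2.31% in Q418R and 36.6% in R448Q, while over all tiles it was 0.931%, 0.459% and 2.74%. With every SMC3 list limited to its 42030 strongest peaks, the window held 18 peaks in WT, 33 in R339Q, 24 in R342C, 16 in S354F, 28 in K365T, 26 in R377C, 19 in R377H, 22 in Q418R, 41 in R448Q and 30 in H455R. R448Q therefore had the most with equal numbers too, and its covered length was then 23.2%, against 3.19% in WT.

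**Figure D4:**
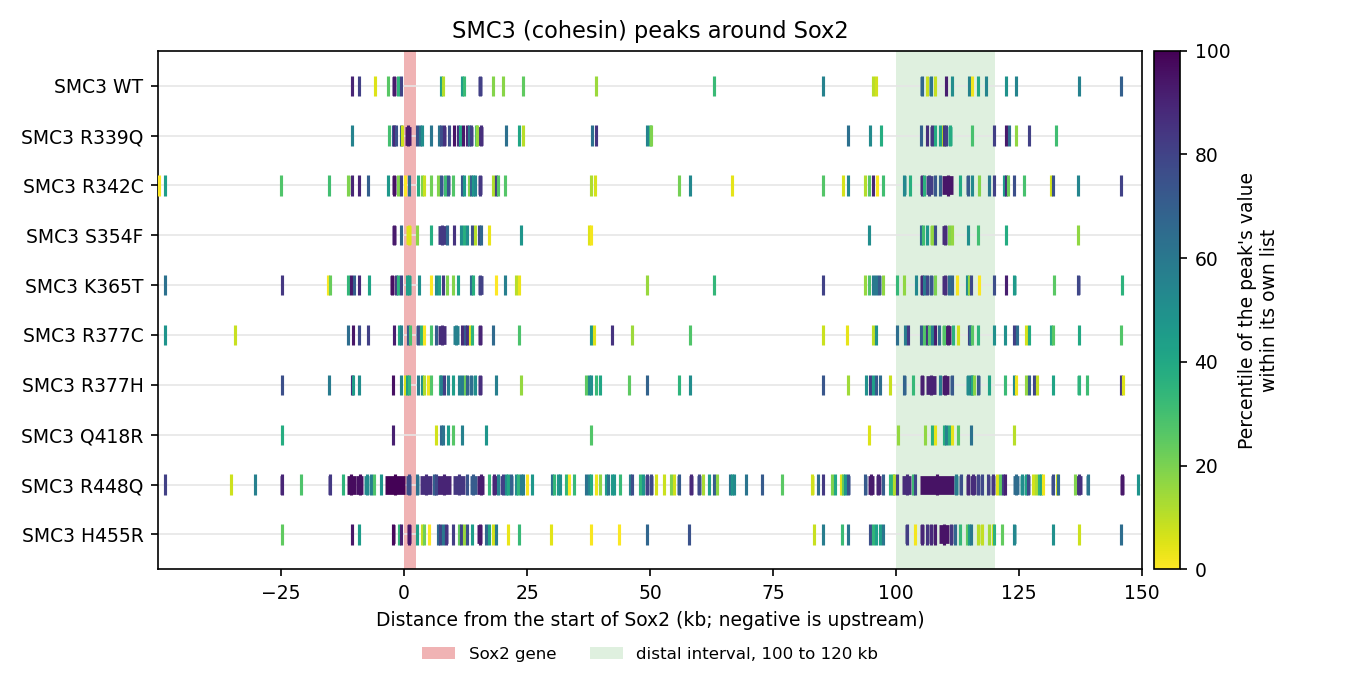
Each tick or bar is 1 SMC3 peak, placed by distance from the Sox2 start (x axis, kb) for each genotype (y axis) and coloured by its percentile within its own list. Peaks gather from the upstream sites to about 25 kb downstream and again in the shaded distal interval, sparsest in Q418R with 22 peaks and densest in R448Q with 127.

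SMC3 peaks were counted in 2 stretches. From the Sox2 start to 25 kb downstream, a limit set after the peaks were seen, WT had 8 SMC3 peaks, Q418R 7, S354F 15, K365T and R377C 17, R339Q, R342C, R377H and H455R 22 and R448Q 23. This stretch is 12.5% of the window's length, had no FLAG peak and had 2 CTCF antibody peaks in treated cells. The distal interval is 10% of the length. It had 10 SMC3 peaks in WT, S354F and Q418R, 11 in R339Q, 13 in R448Q and R377H, 17 in K365T, 14 in R342C, 19 in R377C and 18 in H455R. Those were 29.4% of the window's SMC3 peaks in WT, 45.5% in Q418R, 18.3% in R377H and 10.2% in R448Q, with the other 6 genotypes between 20% (R342C) and 31.2% (S354F). In R448Q the share of peaks was thus near that of the length, and 36 of its 127 peaks lay in the 2 stretches together. Some of those peaks were broad, however, and SMC3 in R448Q covered 72.4% of the first stretch, against 36.6% of the whole window. SMC3 peaks covered 17.7% of the distal interval in WT, 10.3% in Q418R and 74.7% in R448Q, where 1 peak ran from 34754765 to 34761645.

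**Figure D5:**
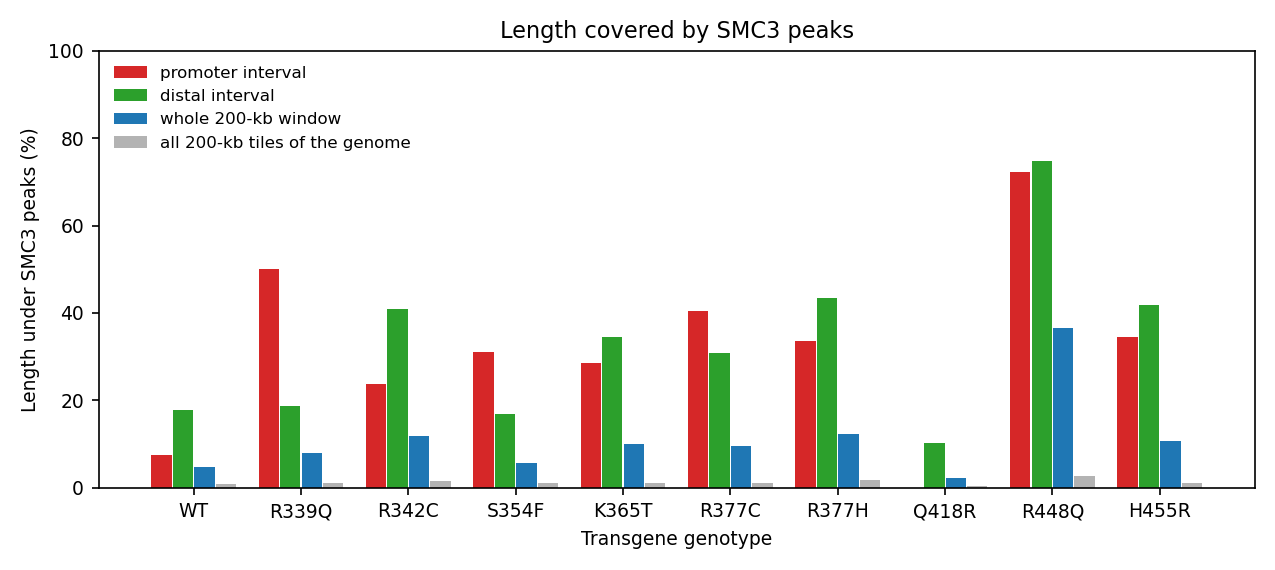
Bars give the length under SMC3 peaks (y axis, %) in each genotype (x axis) for the promoter interval, the distal interval, the whole window and all 200-kb tiles of the genome with a peak in any list. In WT these are 7.5%, 17.7%, 4.86% and 0.931%, R448Q is the highest on all 4 measures, and Q418R has none in the promoter interval.

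At the 5 WT FLAG sites with a CTCF antibody peak, SMC3 and FLAG were not missing from the same genotypes. SMC3 was present in WT at all 5. At 2.3 kb upstream SMC3 was called in all 10 genotypes, H455R included (percentile 97.7), where FLAG was not. At the distal site it was likewise called in all 10, with percentiles of 83.8 in R339Q, 94.3 in R342C and 94.7 in H455R, the genotypes without FLAG. In the upstream pair SMC3 was missing from genotypes that had FLAG. At 8.9 kb, where every genotype had FLAG, SMC3 was not called in R339Q, S354F and Q418R, and at 10.6 kb it was not called in S354F and Q418R. R339Q, without FLAG at 10.6 kb, had SMC3 there (percentile 55.3). At 122.2 kb SMC3 was missing in Q418R, which had FLAG, and in H455R, which had not. Over the 45 pairs of site and mutant, FLAG was missing in 7, and SMC3 was called in 6 of these 7. Genome-wide SMC3 was called at 70.4% of such lost sites. FLAG was kept in 38 pairs and SMC3 was called in 32 of them, against 93% genome-wide.

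The 6 pairs with FLAG and no SMC3 fell in R339Q (1), S354F (2) and Q418R (3). Over kept sites of the same kind genome-wide, SMC3 was called at 93.0% in R339Q, 84.5% in S354F and 89.5% in Q418R. In the other mutants that share ran from 88.0% (R377C) to 99.4% (R448Q), so S354F was the lowest there too. Of the 9 mutants, Q418R and S354F had the shortest SMC3 lists. In the tags of the peak names, the SMC3 lists of R339Q, Q418R and, in part, S354F and R377C carry b2 or b3 where the remaining lists carry b1. The labels do not say what these tags mean. R377C had SMC3 at all 5 sites. The part of list length and of whatever the tags mark in the missing SMC3 peaks was not tested.

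Over all 37 CTCF sites of the window, SMC3 was called at 7 in WT, 11 in R339Q, 15 in R342C, 8 in S354F, 15 in K365T, 13 in R377C, 15 in R377H, 5 in Q418R, 25 in R448Q and 15 in H455R. Over the 199190 CTCF sites of the genome the shares were 14.6% in WT, 14.5% in R339Q, 19.9% in R342C, 14.9% in S354F, 16.5% in K365T, 16.5% in R377C, 19.5% in R377H, 9.37% in Q418R, 25.5% in R448Q and 15.6% in H455R. The window's share was 18.9% (9.48 to 34.2) in WT and 67.6% (51.5 to 80.4) in R448Q. Its interval lay above the genome-wide share in R339Q, R342C, K365T, R377C, R377H, R448Q and H455R, and contained it in WT, S354F and Q418R. With a match within 500 bp, the interval lay above in WT too (35.1%, 21.8 to 51.2, against 20.1%). The same held for S354F (35.1% against 21%), and only Q418R still contained its genome-wide share. Sites of 1 locus are not independent of each other.

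Whether the interval lay above the genome-wide share depended on the settings in all genotypes but R448Q and Q418R. In R448Q it lay above under all 5 alternatives, and in Q418R it contained the share under all 5. With the 42030 strongest peaks of each SMC3 list and equal CTCF and FLAG lists, the window had 22 CTCF sites. SMC3 was then called at 4 in WT, R342C, S354F and R377C, 5 in K365T and Q418R, 7 in R339Q, R377H and H455R and 9 in R448Q. The genome-wide shares at that size were 14.7% in WT, 15.4% in R342C, 13.5% in S354F, 13.1% in R377C, 14.6% in K365T, 12.5% in Q418R, 12.2% in R339Q, 14% in R377H, 12% in H455R and 16.8% in R448Q. The interval lay above these in R339Q, R377H, R448Q and H455R, and no longer in R342C, K365T and R377C. Where an overlap of 50% of both intervals was required, the share was 0% in R339Q and Q418R, 5.41% in WT and 16.2% in R448Q, and the interval lay above the genome-wide share in R342C, R377H and R448Q. With the window widened by 50 kb on each side, it lay above in R342C, K365T, R448Q and H455R. It then contained the genome-wide share in R339Q, and by a narrow margin in R377C and R377H.

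Most SMC3 peaks of the window lay away from CTCF sites. The share at a CTCF site ran from 28 of 127 in R448Q to 20 of 53, 37.7%, in R339Q, with 9 of 34, 26.5%, in WT, whereas over the whole lists it ran from 38.1% in R448Q to 63.5% in Q418R, with 50.5% in WT. Merged over the 10 lists, SMC3 peaks formed 132 sites, 100 of them without a CTCF site. Of the 132, 50 were found in R448Q alone and 5 in all 10 genotypes. The sites in all genotypes and without a CTCF site lay 8.1 kb (34656751 to 34659483) and 11.2 kb (34659847 to 34662456) downstream of the Sox2 start, both in the Sox2ot span. At 8.1 kb the highest SMC3 percentile was 43.2 in WT, 86.2 in R339Q, 75.3 in R342C, 83.2 in S354F, 82.6 in K365T, 87.8 in R377C, 82.3 in R377H, 66.7 in Q418R, 90.2 in R448Q and 84.4 in H455R. WT was the lowest. At 11.2 kb it ran from 42.7 in K365T and 43.8 in WT to 94.8 in R339Q. The broad R448Q peaks join neighbouring peaks of other lists: merged without R448Q, the sites shared by the other 9 genotypes without a CTCF site were at 8.03, 105 and 107 kb, and the one at 11.2 kb was no longer among them.

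A list of 12 other pluripotency factors was set beside Sox2 by counting WT FLAG sites within 120 kb of each gene span and those kept in the 9 mutants. Sox2 had 5 such sites, and 38 of the 45 possible pairs of site and mutant were kept, 84.4%. The window's WT site at 137.0 kb, kept in no mutant, lay beyond the limit of 120 kb, and counting it would have lowered that share. Pou5f1, which encodes OCT4, kept 64 of 72 (88.9%), and Nanog, the homeobox factor, kept 40 of 63 (63.5%). K365T kept 5 of 5 sites at Sox2 and 2 of 7 at Nanog, against 52.1% of all WT FLAG sites of the genome. Q418R kept 5 of 5 and 3 of 7, against 59.2%. Tfcp2l1 kept 81.5%, Tbx3 77.8%, Nr5a2 72.2%, Zfp42 70.4%, Sall4 68.9%, Esrrb 66.7%, Klf4 55.6%, Prdm14 50% and Klf2 44.4%, and Klf5 had no WT site. The median over the 11 genes with a site was 68.9%, against 66.7% over 17113 genes with a site. H455R, which kept 10.5% of all WT FLAG sites of the genome, kept 2 sites at Sox2, 1 each at Pou5f1 and Nr5a2 and 0 at the others of the list.

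The genes whose kept shares over the 9 mutants were most like those of Sox2 were taken from 5136 protein-coding genes with at least as many WT sites. Jund, Lsm4 and Pgpep1, neighbours on chromosome 8 that share the same 6 sites, differed from Sox2 by a mean of 4.07 percentage points per mutant. Ggt1 and Ggt5, neighbours on chromosome 10 with 5 sites, differed by 4.44 points. The median over all candidates was 18.9 points. The genes lie below it because they were chosen for the smallest difference. Near Jund, 2 of 6 sites were kept in H455R and near Sox2 2 of 5, shares that were themselves part of the choice.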

How the data were processed

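Of 24 groups of 2 replicates, grouped by the labels, 22 had a peak list pooling both replicates; FLAG in untreated WT cells and IgG were not analysed here. Per the submitters' processing notes, the authors used Trim Galore, Bowtie2, MACS2 and deepTools with mm10. Tool versions were not given in the sources used here. The deposited lists give chromosome, start, end, a name and a score of the authors' peak caller, whose kind is not stated, so scores were compared only within a list. Repeated FLAG intervals, 1 per summit, were merged with the highest score. Library codes in some peak names differ from the list titles, and groups follow the titles. Depth is unknown.

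Overlap meant at least 1 bp. Sites are merged overlapping peaks. Sites named singly have FLAG in WT or in at least 5 genotypes, or lie in the promoter or distal interval; the highest-ranked private sites, SMC3 sites in all genotypes without a CTCF site (at most 5), the window's genes, the pluripotency list and the 5 genes most like Sox2 were also named. Other sites were named after their values were seen. Python 3.11.15, numpy 2.4.6, pandas 2.3.3, scipy 1.17.1 and matplotlib 3.10.9 were used, and the overlap code was tested on simulated lists and with bedtools 2.31.1. Genes came from RefSeq, GRCm38.p6. The members and lists were chosen with earlier results of these data known. Alternatives were a reciprocal overlap of 50%, a match within 500 bp, the upper 50% of each list, equal numbers of peaks, a window widened by 50 kb on each side and 50 kb for genes; 4 more were added after seeing the data.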

Additional observations from a re-analysis of the deposited data

How the results depend on the processing

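No paired analysis was possible because each list pools both replicates, and no replicate could be left out. A widened window changed none of its 40 values beyond the limit used (the 95% interval of a share, or 1.5 times for a count). It added no WT FLAG site, so the kept shares could not change. For shares of few peaks the limit is wide, so little can be read from this. For SMC3 at CTCF sites, however, the intervals of R339Q, R377C and R377H no longer lay above the genome-wide share. With a reciprocal overlap of 50%, SMC3 at CTCF sites was 5.41% in WT, 0% in R339Q and Q418R, 13.5% in R342C, 2.7% in S354F and R377C, 8.11% in K365T and H455R, 10.8% in R377H and 16.2% in R448Q. Untreated CTCF peaks found in treated cells were then 37.8%, and the reverse 70%. With a match within 500 bp, SMC3 at CTCF sites was 35.1% in WT, 45.9% in R339Q, 56.8% in R342C, 62.2% in R377C and 86.5% in R448Q, and the CTCF shares were 73% and 100%. In the upper 50% of each list, FLAG counts were 3 in WT, 4 in K365T, 7 in R377C, 8 in Q418R and 5 in R448Q, the kept share was 100% in R342C, S354F, K365T, R377C, R377H and R448Q, SMC3 at CTCF sites was 50% in R339Q and the treated CTCF share 100%. With equal numbers, FLAG counts were 3 in WT, R377C and R448Q, 4 in K365T, 2 in S354F and R377H, 1 in R342C and 0 in R339Q and Q418R. The kept share was then 0% in R339Q and Q418R, 33.3% in S354F and 100% in K365T, R377C and R448Q. The share absent from WT was 0% in R377C, R377H and R448Q, and R339Q and Q418R had none to count. SMC3 at CTCF sites was 18.2% in R342C and R377C, 22.7% in K365T and 40.9% in R448Q, and untreated CTCF peaks found in treated cells were 83.3%. Equal numbers and the upper 50% left fewer peaks by construction. On the same peaks, a reciprocal overlap of 50% can only lower a share of matched peaks, and a match within 500 bp can only raise it. No other cause was tested. Among alternatives added later, WT FLAG sites with a treated CTCF antibody peak gave 100% kept in S354F, K365T, R377C, Q418R and R448Q, and sites merged from FLAG lists alone changed none of 10 values beyond the limit. Within 50 kb, the pluripotency list without Sox2, pooled over sites and mutants of the 8 genes that still had a site, kept 75.8%, against 71.7% pooled over 11 genes within 120 kb, and Sox2 alone kept 92.6%. Pooled lists of unknown depth limit every count to 1 value per genotype, so a missing peak and a shallow library cannot be told apart.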
